A study of Mus musculus with 23 samples.

Results

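Collagens are proteins whose chains wind into triple helices, and the genes counted here are those whose symbols have the form Col, a type number, a and a chain number. Of the 19945 genes in the deposited table, 42 carry such a symbol, and all 42 were found in the GENCODE M21 annotation of the mouse genome. They were chosen by name alone, with no use of their values, and each is accounted for below. The libraries are labelled as ILC2s, innate lymphoid cells of group 2, a kind of tissue lymphocyte without antigen receptors. They fall into 4 groups. The brain day 5 group (n = 6) and the blood day 5 group (n = 6) hold transferred cells collected 5 days after MCAO, in which the middle cerebral artery is occluded to model a stroke. The blood day 1 group (n = 6) holds transferred cells collected 1 day after MCAO, and the base group (n = 5) holds cells taken straight from culture.

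All groups start from the same kind of donor, male mice 8 to 10 weeks old, transgenic and wild-type, with the genotype B6.Cg-Tg(CAG-GFP)Smoc, in which the CAG promoter drives GFP in most cell types. Donors received IL-33 every 2 days over 7 days. Marrow and spleen cells that carried CD25 and lacked the lineage markers Ter119, CD45R/B220, CD3ε, Gr1 and CD11b were cultured for 14 days with IL-2 and IL-7 together with IL-33 and IL-15, and cells sorted as CD45+Lin-ST2+KLRG1+CD127+ were injected into a vein 6 hours after MCAO. The sources used here do not say how cells were sorted when they were collected, how many animals gave a library, or whether each library came from a separate animal. The p-values therefore measure the spread between libraries, which may be technical. The labels give batch 1 (12 libraries) and batch 2 (11 libraries), and each batch holds libraries of all 4 groups.

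Collagen chains are made in the endoplasmic reticulum, where proline and lysine residues are hydroxylated and a chaperone holds the helix, and they are trimmed and cross-linked outside the cell. Fibrillar collagens form the cables of connective tissue, the type IV chains form the sheet of basement membranes, and the other classes decorate fibrils, anchor membranes or span the cell surface. In the brain, collagens are known mainly from the meninges, the choroid plexus stroma and the walls of blood vessels, where fibroblasts, mural cells and endothelial cells make them. Lymphocytes are not a known main source of fibrillar collagen.

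The promoter windows of 6 collagen genes are printed because the results turn on these genes. Col3a1 and Col1a2 had the highest median levels per length in brain libraries, Col4a1 and Col4a2 share a promoter region, and Col27a1 and Col8a2 differed between blood and culture. Each window runs from 250 bases before to 50 bases after the start in RefSeq, build GRCm38.p6, 5′ to 3′ on the strand of the gene. Capitals mark the letters CCAAT, the GC box letters GGGCGG and the TATA box letters TATAAA, searched on both strands, so that a match on the opposite strand shows as the reverse complement.
Col3a1, chr1:45311288-45311587, plus strand: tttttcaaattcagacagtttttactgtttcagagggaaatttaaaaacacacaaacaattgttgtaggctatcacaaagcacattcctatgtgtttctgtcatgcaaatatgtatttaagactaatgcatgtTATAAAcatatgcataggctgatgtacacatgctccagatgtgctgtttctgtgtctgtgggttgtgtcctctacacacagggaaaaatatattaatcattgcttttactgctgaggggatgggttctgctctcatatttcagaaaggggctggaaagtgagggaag
Col1a2, chr6:4505368-4505667, plus strand: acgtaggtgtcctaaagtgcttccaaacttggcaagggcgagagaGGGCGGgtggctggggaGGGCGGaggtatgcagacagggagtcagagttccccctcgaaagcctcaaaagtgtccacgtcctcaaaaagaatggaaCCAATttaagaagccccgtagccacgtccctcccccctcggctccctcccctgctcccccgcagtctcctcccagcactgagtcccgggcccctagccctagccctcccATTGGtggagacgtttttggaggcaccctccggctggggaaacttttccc
Col4a1, chr8:11312777-11313076, minus strand: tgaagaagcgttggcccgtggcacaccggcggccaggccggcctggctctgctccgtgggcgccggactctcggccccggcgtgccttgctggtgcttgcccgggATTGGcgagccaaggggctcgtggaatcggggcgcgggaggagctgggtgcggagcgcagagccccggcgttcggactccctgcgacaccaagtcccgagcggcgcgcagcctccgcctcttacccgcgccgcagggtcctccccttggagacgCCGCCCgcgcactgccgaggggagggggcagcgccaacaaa
Col4a2, chr8:11312555-11312854, plus strand: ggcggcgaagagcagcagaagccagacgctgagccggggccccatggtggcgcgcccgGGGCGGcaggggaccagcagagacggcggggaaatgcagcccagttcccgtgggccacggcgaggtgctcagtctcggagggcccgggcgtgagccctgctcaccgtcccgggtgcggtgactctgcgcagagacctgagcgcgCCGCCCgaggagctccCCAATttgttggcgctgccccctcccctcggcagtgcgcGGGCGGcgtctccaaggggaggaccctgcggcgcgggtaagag
Col27a1, chr4:63215162-63215461, plus strand: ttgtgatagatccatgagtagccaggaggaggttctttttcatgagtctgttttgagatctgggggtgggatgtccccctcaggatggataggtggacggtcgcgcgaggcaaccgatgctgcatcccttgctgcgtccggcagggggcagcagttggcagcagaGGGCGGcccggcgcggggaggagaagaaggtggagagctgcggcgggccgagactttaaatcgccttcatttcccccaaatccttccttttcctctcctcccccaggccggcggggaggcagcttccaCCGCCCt
Col8a2, chr4:126286544-126286843, plus strand: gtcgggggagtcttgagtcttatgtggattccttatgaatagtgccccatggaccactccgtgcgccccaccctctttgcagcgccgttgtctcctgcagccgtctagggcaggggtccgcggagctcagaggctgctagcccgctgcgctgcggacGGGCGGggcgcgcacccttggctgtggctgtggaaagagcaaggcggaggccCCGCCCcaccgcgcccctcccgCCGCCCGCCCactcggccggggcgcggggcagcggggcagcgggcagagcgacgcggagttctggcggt

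The Col3a1 window held TATAAA, starting at position -117 from the start, and neither of the other motifs. The Col1a2 window held CCAAT on each strand and GGGCGG at 2 places. The windows of Col4a1 and Col4a2 lie head to head on opposite strands and overlap by 78 bases, chr8:11312777-11312854, which both sequences show. The Col27a1 window held GGGCGG at 2 places, and the Col8a2 window held it at 4, of which a pair overlap. RefSeq windows were at hand for 33 of the 42 genes, 35 windows in all. GGGCGG was in 22 of these 35 windows (62.9%), against 35.7% of all 32851 mouse windows. CCAAT was in 11 (31.4%), against 37.4% of all windows, and TATAAA in 5 (14.3%), against 13.6%. These letters describe the windows and are not mapped binding sites.

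Recovered reads per library, in units of 1e6, ran from 11.6 to 58.1, with 11.6 to 16.9 in batch 1 and 27.8 to 58.1 in batch 2. Brain replicate 2, blood day 1 replicates 2 and 6 and base replicate 5 stood apart, with median correlations to the rest of their group of 0.795, 0.773, 0.836 and 0.852. Brain replicates 1 and 3 were close to each other (chi-square per degree of freedom 8.59 on recovered reads), as were base replicates 1 to 3 (3.44 to 9.77), against 36.5 or more for other pairs within a group. Their sources are not given, and each entered the tests as a replicate. The ILC2 markers were uneven across groups. The receptor gene Klrg1, one of the sorting markers, had median normalized counts of 7.31 in brain, 7545 in blood day 5, 6861 in blood day 1 and 17922 in base libraries. Ptprc, the gene of the pan-leukocyte protein CD45, had medians of 1566, 27264, 15895 and 16325 in the same groups. Gata3, Il2ra and Thy1 also had their lowest median in brain. Rora did not, with medians of 1090, 867, 874 and 25.3 in the same order. Il7r, which encodes CD127, had medians of 83.8, 2230, 1448 and 16.9, lowest in base. Il1rl1, which encodes ST2, had medians of 34.3, 115, 142 and 0, with reads in 1 of 5 base libraries. Il5, a cytokine of ILC2s, had no reads in 5 of 6 brain, 3 of 6 blood day 5, 4 of 6 blood day 1 and 4 of 5 base libraries.

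In the brain libraries the collagen genes together made up a median of 1.02% of all normalized counts, against 0.00240% in blood day 5, 0.00143% in blood day 1 and 0.00310% in base libraries. The 6 brain libraries held 1.61, 0.0965, 1.41, 0.814, 1.14 and 0.894% for replicates 1 to 6. Blood day 5 libraries ranged between 0.000877 and 0.00369%, blood day 1 libraries between 0.000701 and 0.00904%, and base libraries between 0.00215 and 0.00806%. The groups did not overlap: the lowest brain library, replicate 2, lay above the highest library of any other group, and the other 3 groups overlapped one another. Between 33 and 41 of the 42 genes had reads in a brain library, against 10 to 26 in blood day 5, 7 to 27 in blood day 1 and 5 to 23 in base libraries. Of all 19945 genes, 15881 to 17072 had reads in a brain library. The ranges were 13604 to 14828 in blood day 5, 11150 to 15464 in blood day 1 and 10551 to 14167 in base libraries. Brain libraries thus held reads of more genes of any kind. For 22 of the 42 genes the lowest brain library was above every other library. The share of all genes for which this holds was not computed, so the count describes the collagens only and is not set against a background. Without the 4 libraries that stood apart the medians were 1.14, 0.00240, 0.00115 and 0.00318%. In bulk samples such as these, more cells of a type and more RNA per cell cannot be told apart.

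**Figure D1:**
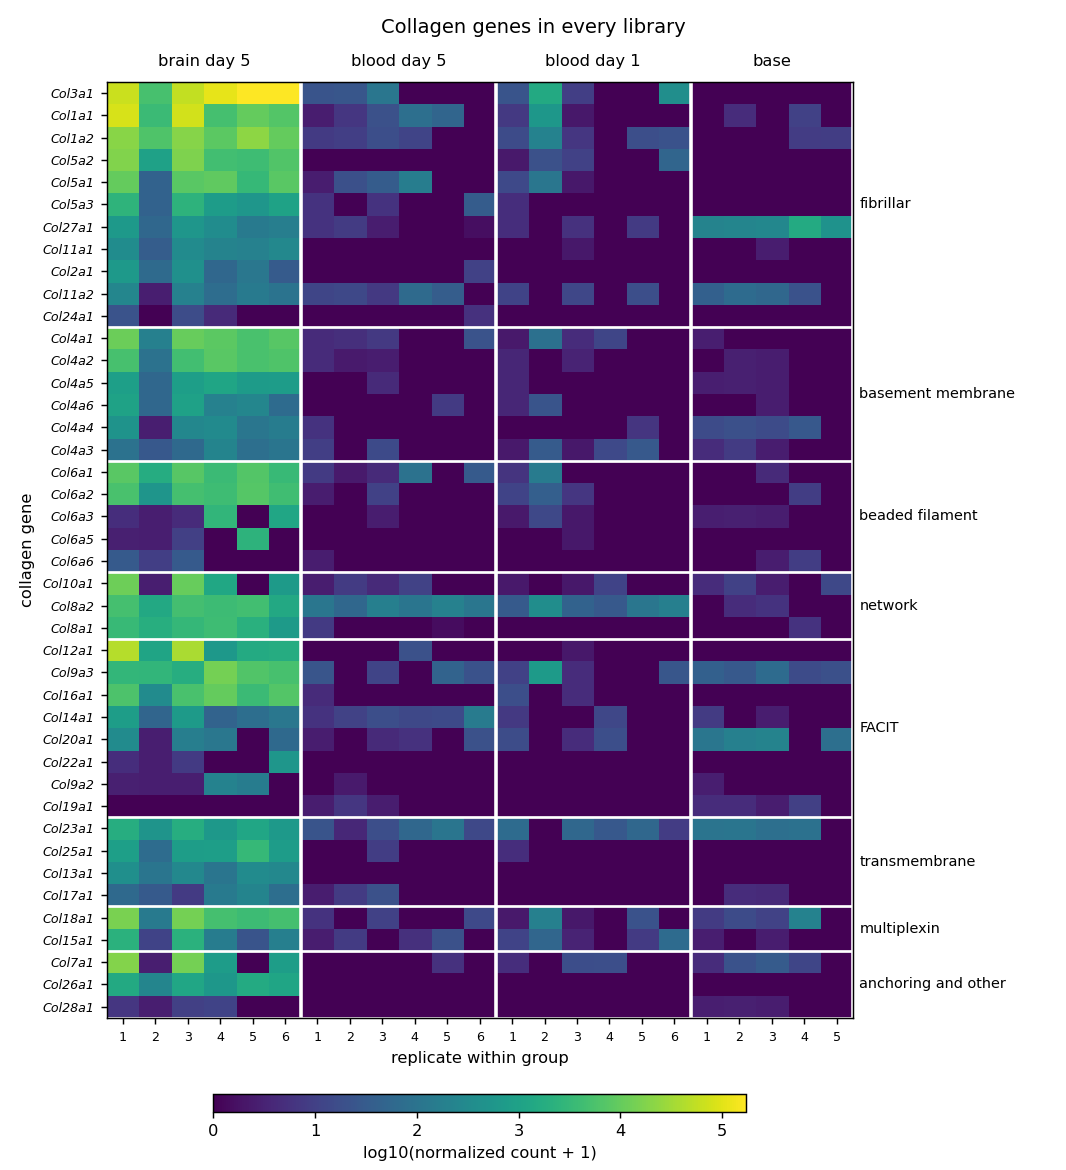
Every collagen gene (rows, grouped by class) in every library (columns, by group and replicate), coloured by log10(normalized count + 1). The 6 brain libraries on the left are bright in most rows, with replicate 2 duller, while outside the brain most rows are at or near 0. Exceptions include Col27a1 and Col20a1 in base, Col8a2 in blood and Col23a1 in base and blood libraries.

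Markers of several other cell types were also higher in brain libraries, while those of platelets, B cells and erythroid cells were lower there than in blood. All 10 fibroblast markers measured had reads in some brain library, and together they made up 0.182 to 0.588% of a brain library, against 0.00459 to 0.0147% in blood day 5, 0.00317 to 0.00597% in blood day 1 and 0.000296 to 0.000777% in base libraries. The 12 mural markers made up 0.0377 to 0.179% in brain, 0.00845 to 0.0117% in blood day 5, 0.00470 to 0.0135% in blood day 1 and 0.00175 to 0.00471% in base libraries. The 11 endothelial markers made up 0.0463 to 0.360% in brain, 0.0248 to 0.0960% in blood day 5, 0.0206 to 0.310% in blood day 1 and 0.000990 to 0.00209% in base libraries. Choroid plexus markers reached 1.52 to 7.87% in brain and at most 0.154% in any other library, while the 9 ILC2 markers made up 0.00693 to 0.0201% in brain, 0.202 to 0.279% in blood day 5, 0.0312 to 0.226% in blood day 1 and 0.302 to 0.387% in base libraries. Microglia markers made up 0.898 to 2.34% in brain and at most 0.131% elsewhere, oligodendrocyte markers 0.99 to 1.47% and at most 0.218%, and astrocyte markers 0.0977 to 0.270% and at most 0.0427%. Brain libraries thus lay above all others for these 3 lists too. The monocyte and macrophage list and the neuron list overlapped between brain and blood. Monocyte and macrophage markers made up 0.117 to 0.408% in brain and 0.0654 to 0.128% in blood day 5. Of these, Ccr2 had medians of 162 in brain and 6521 in blood day 5, and Cd68 22726 and 4184. Neuron markers made up 0.00262 to 0.0156% in brain and 0.000209 to 0.0209% in blood day 1. B cell markers made up 0.000855 to 0.00347% in brain, 0.180 to 0.430% in blood day 5 and 0.0441 to 0.269% in blood day 1 libraries. Erythroid markers made up 0.000174 to 0.0604% in brain, 0.267 to 3.72% in blood day 5 and 0.357 to 8.39% in blood day 1 libraries. Within lists the markers differed: Pdgfra, a receptor of fibroblasts, had a median of 7035 in brain and no reads in blood day 5 libraries, whereas Pi16 and Kcnj8, counted here as fibroblast and mural markers, had medians of 162 and 509.9 in brain and 1254 and 1616 in blood day 5 libraries. The part of these cells in the collagen values was not tested.

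**Figure D2:**
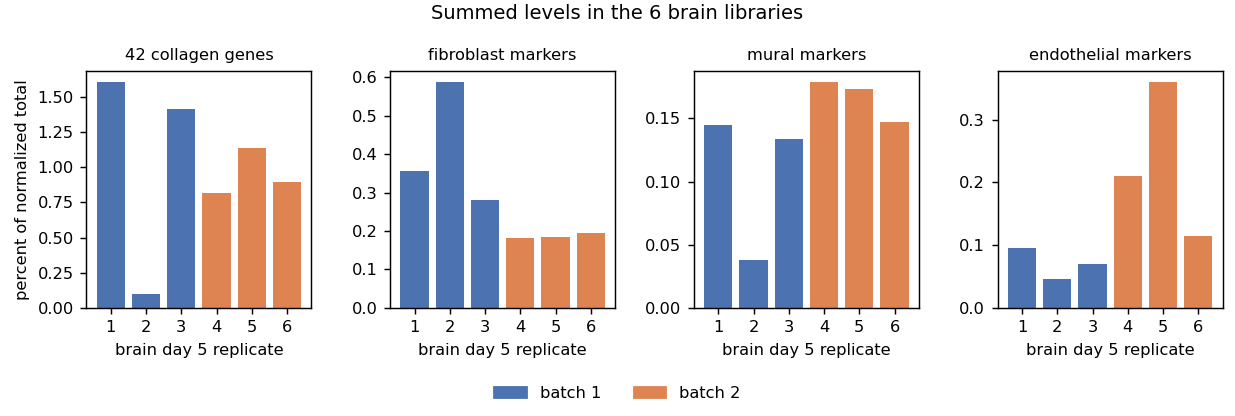
Bars show, for each of the 6 brain libraries, the summed level of the 42 collagen genes and of 3 marker lists as a percent of the normalized total, with batch by colour. Replicate 2 is the lowest for collagens (0.0965%), mural markers (0.0377%) and endothelial markers (0.0463%) and the highest for fibroblast markers (0.588%).

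The question of what distinguishes cells collected from the brain from cells collected from blood at the same time was addressed by the comparison of brain day 5 with blood day 5 libraries. Collagen genes of every class were higher in brain. Of the 34 collagen genes with enough signal to test, 32 were higher in brain and 0 were lower, against 33.6% and 14.3% of all 15268 genes tested (limma on log2 of the normalized count plus 1, adjusted p under 0.05 over all genes). Without the adjustment 33 had p under 0.05, each of them higher in brain. The median log2 difference was 8.18 over the 34 genes, 8.11 with genes at 0 in blood set at their bound, and 0.47 over all genes. The direction was the same in each batch, with 31 higher and 0 lower in batch 1 and 27 and 0 in batch 2. Over all genes tested, 3997 were higher and 1704 lower in batch 1 and 4222 and 1529 in batch 2. Part of this count is fixed by the filter: 22 of the 34 genes reached a normalized count of 10 in fewer than 5 libraries outside the brain, so they could be tested only because they were high in brain. Of the 12 genes that reached it in 5 or more blood or base libraries, 10 were higher in brain and 0 lower, against 22.5% and 17.1% of the 12756 genes that did so.

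Brain day 5 was also set against base, to ask how cells in the brain differ from the cultured cells. Here 31 of the 34 genes were higher in brain and 0 were lower, against 37.5% and 11.7% of all genes tested, with a median log2 difference of 8.29 (8.07 with bounds) and 0.67 over all genes. Without the adjustment 31 had p under 0.05 in limma, each of them higher in brain. Of the 12 genes that reached a value of 10 in 5 or more blood or base libraries, 9 were higher than base and 0 lower, against 27.5% and 13.9% of all such genes. Batch 1 alone gave 28 higher and 0 lower, and batch 2 alone 29 and 0. Over all genes batch 1 gave 4633 higher and 1452 lower, and batch 2 gave 5161 and 1287. Both comparisons share the brain libraries, so they are not independent. Without the 4 libraries that stood apart, 34 collagen genes were higher in brain than in blood day 5 and 31 than in base, and 0 were lower. Over all genes 6376 were then higher and 2876 lower than in blood day 5, and 6222 and 2293 than in base. Scaling every library to the same total brought the median of all genes to 0.08 for brain against blood day 5 and 0.62 against base, and edgeR with TMM scaling brought it to 0.14 and 0.22. Of all genes 5123 were higher and 2183 lower in brain than in blood day 5, against 4383 and 2978 with equal totals and 4141 and 2816 with edgeR. Against base they were 5733 and 1780, against 5518 and 1738 with equal totals and 4784 and 2746 with edgeR. With equal totals 32 collagen genes were higher in brain than in blood day 5 and 31 than in base, with edgeR 31 and 30, and 0 were lower in each.

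**Figure D3:**
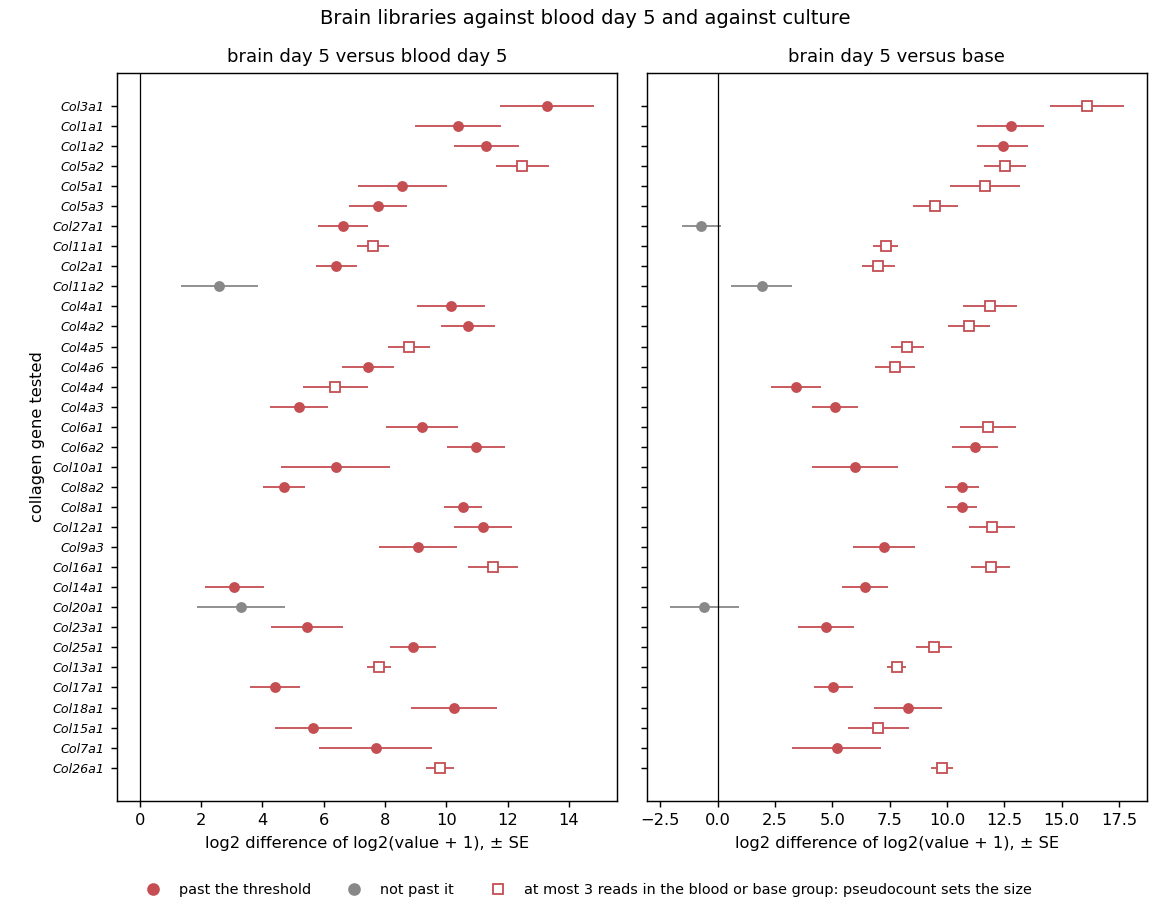
Log2 differences of log2(normalized count + 1) with their standard errors for the 34 tested collagen genes, brain day 5 minus blood day 5 (left) and brain day 5 minus base (right). Red symbols passed the threshold, grey ones did not, and for open squares the blood or base group held at most 3 reads, so the size depends on the pseudocount. Nearly all points lie right of 0, with Col27a1 and Col20a1 left of 0 in the panel against base.

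Among the fibrillar collagens, 9 of 10 tested genes were higher in brain than in blood day 5 and 8 of 10 than in base. The shares over all genes tested were 33.6% and 37.5%. Col1a1, Col2a1, Col5a2, Col5a3 and Col11a1 could be tested only because they were high in brain. Col3a1, the single chain of type III collagen (chr1:45311538-45349706, GRCm38), had the highest median per length in brain, 15957 normalized counts per kilobase of its longest coding transcript. Its normalized counts in brain replicates 1 to 6 were 65012, 5181, 57999.8, 112552, 172160.2 and 170592. In blood day 5 libraries it had 21.5, 23.7, 115, 0, 0 and 0, and in base libraries no reads at all. Every brain library was above every other library, and the highest outside the brain was blood day 1 replicate 2 with 1523. The difference was 13.29 ± 1.53 (SE) against blood day 5 (adjusted p = 1.4e-07), and brain libraries were at least 24196-fold higher than base, counting 3 reads per base library as the floor. A stretch of 141 bases of its exons overlaps a predicted gene on the same strand, so a share of its reads could belong to either.

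Type I collagen, the main protein of scar and skin, is built of Col1a1 and Col1a2 chains. Col1a1 had normalized counts of 82678, 3756, 74373, 4949, 10035 and 6828 in brain replicates 1 to 6, against 1.65, 5.58, 19, 79, 49.5 and 0 in blood day 5 and 0, 3.65, 0, 9.49 and 0 in base libraries. Brain replicates 1 and 3, the close pair, were far above the other 4. The difference was 10.38 ± 1.39 against blood day 5 (adjusted p = 1.3e-06) and 12.78 ± 1.46 against base (adjusted p = 1.1e-07). Col1a2 was more even, with 19864, 6130.0, 19122, 8175, 22228 and 9848 in brain, against at most 17.4 in blood day 5 and 8.13 in base libraries. It differed by 11.30 ± 1.05 and by 12.43 ± 1.10.

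The balance of these chains was not the same in all brain libraries. Per length, the ratio of Col1a1 to Col1a2 was 3.75 and 3.51 in replicates 1 and 3, against 0.553, 0.546, 0.407 and 0.63 in replicates 2, 4, 5 and 6. The ratio of Col3a1 to Col1a2 was 3.15 and 2.92 in replicates 1 and 3, 0.812 in replicate 2 and 13.2, 7.44 and 16.7 in replicates 4 to 6. Replicate 2 was low in both ratios. Col3a1 made up 18.6 to 18.9% of the collagen sum in the batch 1 libraries and 53.0 to 67.4% in the batch 2 libraries, which do not overlap. Col1a1 made up 13.5 to 24.2% in batch 1 and 2.33 to 3.71% in batch 2. Batch and animal cannot be told apart here, since the labels name no animals.

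Type V collagen sits inside type I fibrils and limits their width. Col5a2 had 17680.3, 1005, 16461, 4493, 4023 and 6549 in brain libraries and no reads in any blood day 5 or base library. Against the floor this is at least 2769-fold higher than blood day 5 and at least 2082-fold higher than base. Col5a1 had 10026, 42.6, 7927, 9245, 3219.8 and 7931 in brain, against 1.65, 18.1, 33.2, 163, 0 and 0 in blood day 5 and no reads in base. Brain replicate 2 fell inside the blood range for this gene, and the other 5 were above it. The difference from blood day 5 was 8.56 ± 1.45 (adjusted p = 3.0e-05), and the fold over base at least 1592. The ratio of Col5a1 to Col5a2 per length was 0.0334 in replicate 2 and 0.380 to 1.62 in the others. Exons of Col5a1 overlap those of 2810430I11Rik and Gm13372 on the opposite strand over 212 bases, so its reads may include some of those genes. Col5a3, a further type V chain, was between 42.6 and 2563 in brain and at most 32.7 in blood day 5 libraries.

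The remaining fibrillar genes, known from cartilage, were lower in level. Col2a1, the type II chain, was between 31.2 and 635 in brain and had reads in 1 of 6 blood day 5 libraries (9.18) and no base library. Col11a1 was between 34.1 and 357 in brain and had no reads in blood day 5. Both were past the threshold in both comparisons. Col11a2 missed it in both, with a difference of 2.60 ± 1.26 from blood day 5 (adjusted p = 0.0970) and 1.92 ± 1.33 from base (adjusted p = 0.250). Its brain values were 250.3, 1.70, 198, 74.3, 139 and 96.1. Only replicate 2 lay inside the range of blood day 5, which went up to 64, and of base, which went up to 67.6. Without brain replicate 2 it passed in both comparisons, with adjusted p = 0.00970 and 0.0375, and against blood day 5 it also passed without blood day 5 replicate 4 (0.0490). Col24a1 was not tested, with at most 20.6 in any library.

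**Figure D4:**
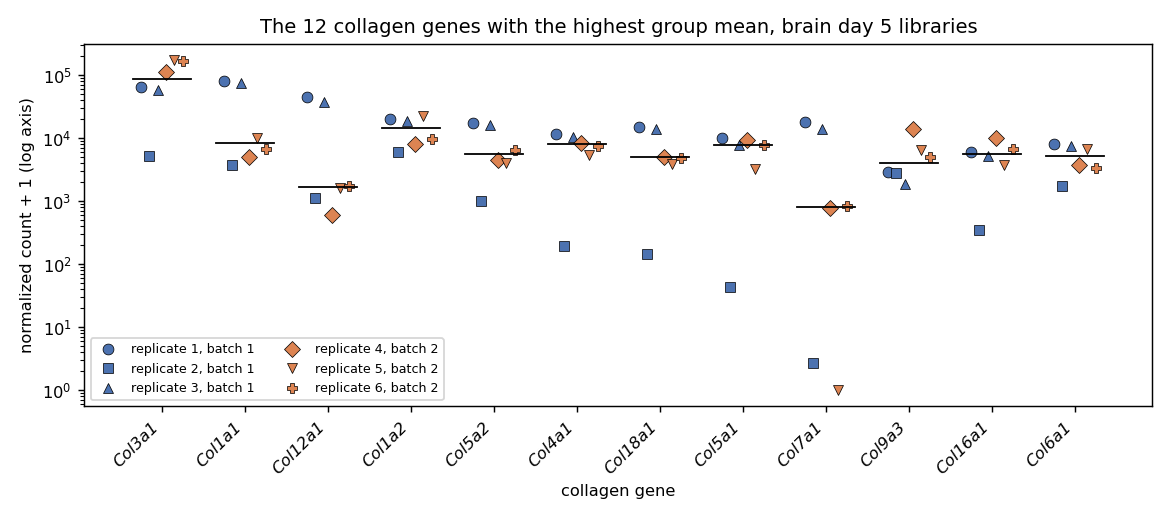
Normalized counts plus 1 (log axis) of the 12 collagen genes with the highest group mean in each of the 6 brain libraries, with the group median as a line, symbols for replicates and colour for batch. Replicate 2 lies lowest for Col3a1, Col4a1, Col18a1 and Col5a1, and replicates 1 and 3 lie far above the rest for Col1a1, Col12a1 and Col7a1.

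All 6 basement membrane genes, the type IV chains, were higher in brain in both comparisons, against 33.6% and 37.5% of all genes tested. Each of the 6 reached a value of 10 in fewer than 5 libraries outside the brain. They could therefore be tested only because they were high in brain, and this count is largely fixed by the filter. Col4a1 (chr8:11198423-11312826) had 11525, 191, 10301, 8415, 5327 and 7509.6 in brain libraries, against 3.31, 4.19, 6.32, 0, 0 and 20.6 in blood day 5. Base held a single value of 1.81 in replicate 1, and the ratio of read rates was 31942 with a 95% counting interval of 5733 to 1261673. Against blood day 5 the difference was 10.15 ± 1.11 (adjusted p = 6.4e-08). Col4a2, its partner in the same helix and its neighbour across the shared promoter printed above, had 5098, 92, 4479, 8019, 5447 and 6202 in brain and at most 3.31 in blood day 5, a difference of 10.71 ± 0.87. Every brain library was above every other library for Col4a1 and Col4a2. The exons of this pair overlap by 22 bases on opposite strands, and how strand was treated in counting is not given.

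The ratio of Col4a1 to Col4a2 per length was 2.20, 2.02 and 2.24 in brain replicates 1 to 3 and 1.02, 0.954 and 1.18 in replicates 4 to 6. The batches do not overlap in this ratio. The chains Col4a3, Col4a4, Col4a5 and Col4a6, which form the specialised networks of kidney, lung and cochlea, come in head-to-head pairs as well: the annotated starts of Col4a4 and Col4a3 lie 72 bases apart and those of Col4a6 and Col4a5 1309. Col4a5 was the most abundant of them in brain, between 54.5 and 1179.9, with a ratio to Col4a1 per length of 0.0807 to 0.289. Col4a6 was between 56.2 and 1049.9, Col4a4 between 1.70 and 486, and Col4a3 between 27.3 and 227. In blood day 5 none of these 4 chains exceeded 14.2. Exons of Col4a3 overlap those of C430014B12Rik on the opposite strand over 563 bases, so its reads may include some of that gene.

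Type VI collagen forms beaded filaments around cells, and its helix joins Col6a1 and Col6a2 with a longer chain. Col6a1 had 7996, 1721, 7605, 3751, 6813 and 3384 in brain libraries, against 6.62, 1.40, 3.16, 93.2, 0 and 29.2 in blood day 5. The difference was 9.20 ± 1.16 (adjusted p = 5.4e-07), and every brain library was above every other library. Col6a2 was between 542 and 7215 in brain and at most 9.48 in blood day 5, a difference of 10.97 ± 0.95. The ratio of Col6a1 to Col6a2 per length was between 0.884 and 3.60.

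The longer type VI chains behaved differently. Col6a3 had 3.74, 1.70, 3.44, 2841, 0 and 1243 in brain replicates 1 to 6, so that 2 libraries of batch 2 held nearly all its reads. Its ratio to Col6a1 per length was 0.307 in replicate 4, 0.149 in replicate 6 and at most 0.000402 in the other 4. Col6a5, which can take the place of Col6a3, reached 2454 in replicate 5 and did not exceed 8.61 elsewhere. Col6a6 was at 29.9 or below in every library. None of these 3 passed the filter on low values, so no fit was made for them. Replicates 4 and 6, with the high Col6a3 values, had no Col6a5 reads, and replicate 5, with the high Col6a5 value, had no Col6a3 reads.

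The network collagens of types VIII and X form hexagonal lattices. Col8a1 had 3419, 1933, 3045, 4168, 2099 and 726 in brain and at most 6.62 in any blood library, a difference of 10.55 ± 0.62 from blood day 5 (adjusted p = 1.8e-12). Its partner Col8a2 had 4969, 1452, 4689, 3877, 4551 and 1455 in brain against 54.4 to 199 in blood day 5, where it had the highest median of the collagens, and its difference was smaller at 4.70 ± 0.69 (adjusted p = 4.4e-06). The ratio of Col8a2 to Col8a1 per length was 0.886 to 2.56 in brain libraries. Col10a1, known from growing cartilage, had 12087, 1.70, 10291, 1342, 0 and 712 in brain. Replicates 2 and 5 fell within the blood range, and the difference from blood day 5 was 6.39 ± 1.77 (adjusted p = 0.0044). Its exons overlap those of Nt5dc1 by 18 bases.

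Collagens that attach to fibrils (FACIT) were higher in brain for 4 of 5 tested genes in both comparisons, against 33.6% and 37.5% of all genes tested. Of these, Col12a1 and Col16a1 could be tested only because they were high in brain. Col12a1, which coats type I fibrils under tension, had 45256, 1129.9, 37573, 610.4, 1593 and 1762 in brain. Blood day 5 held reads in replicate 4 only (18.8) and base held none. The difference from blood day 5 was 11.20 ± 0.96 (adjusted p = 1.2e-09), and the fold over base at least 3646. As for Col1a1, replicates 1 and 3 were far above the other 4. Col16a1 had 6075, 343, 5288, 9961, 3694 and 6699.6 in brain, 3.31 in blood day 5 replicate 1 and no reads in the other blood day 5 or base libraries. Its ratio of read rates to blood day 5 was 25427 (95% counting interval 7039 to 209968), and its fold over base at least 1329.

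Col9a3, a chain of the cartilage collagen type IX, had 2916, 2795, 1864, 13792, 6455 and 5118 in brain, against 23.2, 0, 11.1, 0, 45.9 and 20.1 in blood day 5 and 14.9 to 66 in base. It was 9.07 ± 1.28 higher than blood day 5 (adjusted p = 2.7e-06) and 7.26 ± 1.34 higher than base (adjusted p = 7.9e-05). Every brain library was above every other library, and replicate 3, not replicate 2, was the lowest. Exons of Col9a3 overlap those of Tcfl5 on the opposite strand over 234 bases, so its reads may include some of that gene. The other type IX chain listed, Col9a2, had 211 and 154 in brain replicates 4 and 5 and at most 1.87 in the other libraries. Col14a1, a relative of Col12a1, had 820.1, 51.1, 719.6, 45.9, 76.8 and 117 in brain, against 4.96 to 151 in blood day 5, a difference of 3.08 ± 0.96 (adjusted p = 0.0104).

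Col20a1 was not past the threshold, with 333, 1.70, 172, 116, 0 and 59.5 in brain, against at most 18.9 in blood day 5 and 0 to 221 in base. Its difference was 3.30 ± 1.44 from blood day 5 (adjusted p = 0.0648) and -0.59 ± 1.52 from base (adjusted p = 0.784). Against blood day 5 it passed without brain replicate 2 (0.0190), brain replicate 5 (0.0177), blood day 5 replicate 6 (0.0321) or base replicate 4 (0.0389). Col22a1 had 564 in brain replicate 6 and at most 6.89 in any other library. Col19a1 was the only collagen with no reads in any brain library, and it was at most 8.81 elsewhere.

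All 4 membrane-spanning collagens were higher in brain in both comparisons, against 33.6% and 37.5% of all genes tested. Of these, Col13a1, Col17a1 and Col25a1 could be tested only because they were high in brain. Col26a1, an anchoring or other collagen here, and Col13a1, a transmembrane collagen of the nerve-muscle junction, were found in brain libraries alone. Col26a1 had 239 to 1560.3 and Col13a1 106 to 404 there, and neither had a read in any of the 17 other libraries. Against the floor they were at least 350.4-fold and at least 83-fold higher than blood day 5. Col25a1, a neuronal transmembrane collagen found in amyloid plaques, was between 69.9 and 3189 in brain and at most 7.90 in any other library, a difference of 8.92 ± 0.75 from blood day 5. Col23a1 was 523 to 1838 in brain, 2.79 to 107 in blood day 5, 0 to 68.1 in blood day 1 and 0 to 108 in base libraries. Col17a1, of the hemidesmosome, was between 6.89 and 225 in brain and differed by 4.41 ± 0.81.

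The multiplexins lie at basement membranes and yield fragments such as endostatin, which comes from Col18a1. Col18a1 had 14968, 143, 13772, 5025, 3957 and 4894 in brain, against 4.96, 0, 9.48, 0, 0 and 13.2 in blood day 5 and 7.22, 14.6, 9.90, 204 and 0 in base. It was 10.25 ± 1.41 higher than blood day 5 (adjusted p = 1.9e-06) and 8.30 ± 1.48 higher than base (adjusted p = 5.2e-05). Brain replicate 2 lay below base replicate 4, and the other 5 brain libraries lay above all base libraries. Col15a1 was between 10.2 and 2257 in brain, highest in replicates 1 and 3, and differed by 5.66 ± 1.25 from blood day 5.

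Col7a1, which forms the anchoring fibrils of skin, varied widely. It had 18190.3, 1.70, 14037, 772, 0 and 826 in brain replicates 1 to 6, against 4.59 in one blood day 5 library and 0 in the other 5, and 3.61, 20.1, 31.4, 11.5 and 0 in base. Brain replicates 2 and 5 overlapped both groups. The difference was 7.69 ± 1.85 from blood day 5 (adjusted p = 0.0013) and 5.18 ± 1.94 from base (adjusted p = 0.0305). The call against base was lost with the close libraries averaged (adjusted p = 0.146), with just the brain and base libraries fitted (0.0920), and without any one of brain replicates 1, 3, 4 and 6 or base replicates 1 and 5 (0.0623 to 0.0928). Col28a1 was at 10.4 or below throughout.

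Across the family, brain replicate 1 held the highest value of 24 genes, replicate 4 of 9, replicate 5 of 7, replicate 6 of 1, and replicates 2 and 3 of 0. The fibrillar class made up 57.3 to 80.3% of the collagen sum in brain libraries, the FACIT class 4.43 to 15.9% and the basement membrane class 1.52 to 8.64%. Fibrillar shares were 57.3 to 58.6% in batch 1 and 66.4 to 80.3% in batch 2. Per length and by the brain median, Col3a1 was followed by Col1a2 (2708 normalized counts per kilobase), Col1a1 (1422), Col9a3 (1319), Col6a1 (1288), Col4a1 (1204) and Col16a1 (1091). Below Col1a2 the neighbours in this order lay within each other's range over libraries, and Col3a1 was below Col1a2 per length in replicate 2. Single libraries departed from this order in other places too. Per length, Col1a1 lay above Col3a1 in replicates 1 and 3, and Col9a3 and Col16a1 lay above Col1a2 in replicate 4.

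Cells recovered from blood were compared with base, to ask what changes once cultured cells circulate. Few collagens were called here. On day 1, 3 of 34 genes were higher than base and 2 were lower, against 18.1% and 14% of all genes tested. On day 5, 2 were higher and 2 lower, against 19.6% and 11.4% of all genes. The 34 include the 22 genes that could be tested only because they were high in brain. Of the 12 genes that reached a value of 10 in 5 or more blood or base libraries, 2 were higher and 1 was lower on each day (16.7% and 8.33%), against 21.5% and 16.0% of the 12756 such genes on day 1 and 23.1% and 12.9% on day 5, which is near the background. The median log2 differences were 0.15 and 0.24 over the collagens and 0.04 and 0.14 over all genes. Without the adjustment 8 and 6 collagens had p under 0.05. With edgeR 4 collagens were higher and 1 lower on day 1, and 4 and 2 on day 5, while equal totals gave 2 and 1 on each day. Over all genes edgeR gave 2991 higher and 1804 lower on day 1, and 2836 and 1764 on day 5. Equal totals gave 2889 and 1571 on day 1, and 3662 and 1154 on day 5. For the collagens, batch 1 alone gave 4 higher and 2 lower on day 1 and 3 and 2 on day 5, and batch 2 alone 1 and 1 on day 1 and 2 and 1 on day 5. Over all genes batch 1 gave 2696 higher and 2215 lower on day 1, and 2576 and 1636 on day 5. Batch 2 gave 1791 and 886 on day 1, and 2348 and 1099 on day 5. Both comparisons share the base libraries.

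Col8a2 was higher in blood on both days. It had 111, 54.4, 177, 108, 199 and 115 in blood day 5, 30.1, 368, 43.4, 27.9, 111 and 177 in blood day 1, and 0, 3.65, 4.95, 0 and 0 in base libraries. Every blood library was above every base library. The difference from base was 5.96 ± 0.72 on day 5 (adjusted p = 9.4e-07) and 5.42 ± 0.72 on day 1 (adjusted p = 3.7e-06), and within batches it was 5.09 and 7.09 on day 5 and 4.72 and 6.38 on day 1. The platelet markers also moved between these groups, with 0.174 to 1.52% of a library in blood day 5, 0.421 to 5.45% in blood day 1 and 0.000322 to 0.0412% in base, and their part in this was not tested. The highest Col8a2 value, in blood day 1 replicate 2, was in the library with the highest platelet, endothelial and choroid plexus marker levels of its group (5.45, 0.310 and 0.154%). The next highest of that group, replicate 6 (177), had its lowest platelet level (0.421%). In blood day 5 the highest Col8a2 value (199, replicate 5) came with a platelet level of 0.516%, and replicate 3 (177) had the highest platelet level (1.52%).

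Col27a1, a fibrillar collagen known from cartilage (chr4:63214004-63334991), was lower in blood on both days. It had 4.96, 6.98, 1.58, 0, 0 and 0.574 in blood day 5 and 3.93, 0, 4.69, 0, 6.88 and 0 in blood day 1, against 218, 239, 259, 1591 and 465 in base libraries. No blood library overlapped the base range. The difference was -7.33 ± 0.85 on day 5 (adjusted p = 4.8e-07) and -7.30 ± 0.85 on day 1 (adjusted p = 5.5e-07). In brain it had 656, 56.2, 558, 359, 136 and 169, which was 6.62 ± 0.81 above blood day 5 (adjusted p = 3.4e-07) and not distinguishable from base (-0.71 ± 0.85, adjusted p = 0.53, and -1.56 to 0.02 over the alternatives). Across alternatives both blood differences of Col8a2 and of Col27a1 kept their direction and their call. Among collagens, Col27a1 held the highest base median, with 259.

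Of the other calls in blood, those of Col3a1, Col5a2 and Col4a4 were lost when single libraries were left out. Col3a1 was higher on day 1 than in base, which had none, with values of 22.2, 1523, 8.21, 0, 0 and 380.3 (adjusted p = 0.0304). It lost the call without blood day 1 replicate 2 (0.0858), without replicate 6 (0.0740), or without base replicate 1, 2 or 3 (0.0602 to 0.0613). Both blood libraries are among those that stood apart. Col5a2 was likewise called on day 1 (adjusted p = 0.0420), with 1.31, 18.6, 9.38, 0, 0 and 49.4 against no reads in base, and was lost without blood day 1 replicates 2, 3 or 6 or any base replicate (0.0570 to 0.0978). In day 5 blood Col3a1 was not called against base (adjusted p = 0.201), and Col5a2 had no reads.

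Col14a1 was higher in blood day 5 than in base, with 4.96, 9.77, 17.4, 12.7, 13.8 and 151 against 7.22, 0, 1.65, 0 and 0, a difference of 3.33 ± 1.01 (adjusted p = 0.0140). The call held with any 1 library left out and was lost with edgeR (0.0544). Col4a4 was lower in blood on both days, with reads in 1 of 6 libraries on each day (4.96 and 5.41) against 14.4, 18.3, 14.9, 26.4 and 0 in base. Its adjusted p was 0.0432 on day 5 and 0.0436 on day 1, and it ranged from 0.000238 to 0.203 and from 0.00121 to 0.209 over the alternatives. The Col4a4 call was lost on both days without base replicate 1, 2, 3 or 4 (0.0838 to 0.109 on day 5 and 0.0848 to 0.106 on day 1). It was also lost without some single blood libraries. Col20a1 pointed the same way without a call, with at most 18.9 in blood libraries and 112, 194, 221, 0 and 79.8 in base (adjusted p = 0.0555 and 0.0562). Col14a1, Col4a4, Col11a2 and Col20a1 are named here after their values were seen.

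**Figure D5:**
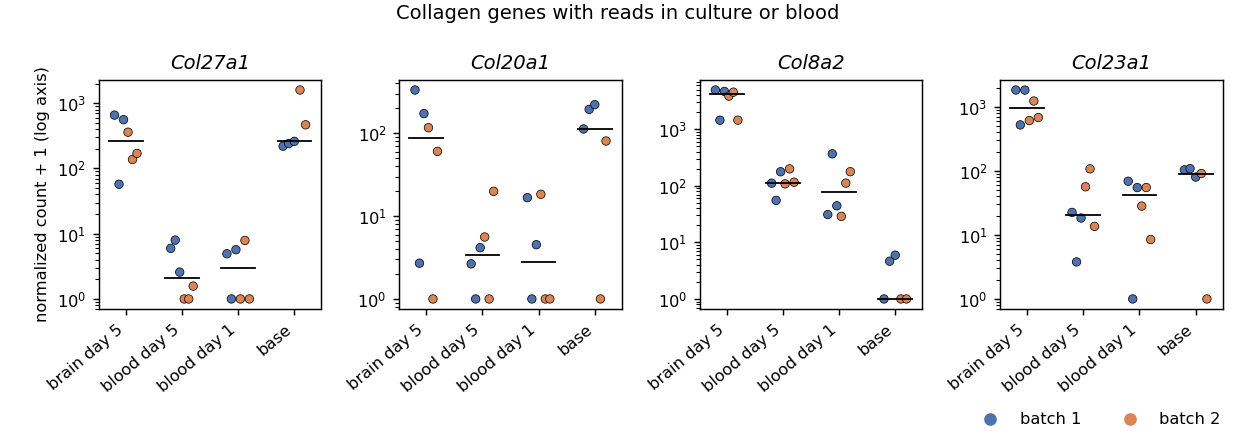
Normalized counts plus 1 (log axes) of 4 collagen genes with reads in blood or culture, by group and coloured by batch, with a line at each group median. Col27a1 and most Col20a1 values are high in brain and base and low in blood, Col8a2 steps down from brain to blood to base, and Col23a1 is highest in brain.

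Blood day 5 was set against blood day 1, to ask whether circulating cells change with time. Of the 34 collagens 0 were higher and 0 lower in limma, against 0.0982% and 0.00655% of all genes tested, 2 had an unadjusted p under 0.05, and edgeR also called 0. Col8a2 differed by 0.54 ± 0.69 and Col27a1 by -0.03 ± 0.81.

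Genes that make, bind and degrade collagen were described in the same way, from lists of known function. As for the collagens, genes of these lists with few reads outside the brain could be tested only because they were high in brain. Such genes were not counted apart, so the filter may fix part of the counts higher in brain below. Of the 28 tested genes of collagen biosynthesis (29 in the table), 26 were higher in brain than in blood day 5 and 1 was lower, against 33.6% and 14.3% of all genes tested, with a median log2 difference of 5.21, against 0.47 over all genes. Adamts2, which cuts off the N-terminal propeptide, averaged 6780.1 in brain and 5.38 in blood day 5 (11.18 ± 0.91, adjusted p = 5.9e-10). Lox, a cross-linking oxidase, averaged 9555 and 26.2 (10.35 ± 1.08), and Serpinh1, the collagen chaperone HSP47, averaged 2602 and 2.17 (9.94 ± 0.86). Adamts14, a relative of Adamts2, ran the other way, with means of 27.5 in brain and 3817 in blood day 5 (-8.43 ± 1.02, adjusted p = 2.9e-07). P4ha1, a prolyl hydroxylase subunit, was not called (2.25 ± 1.13, adjusted p = 0.108). General enzymes of the pathway that many cells use differed less, such as P4hb (1.10 ± 0.25) and Ppib (0.62 ± 0.23).

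Against base, 21 of these 28 genes were higher in brain and 2 were lower, against 37.5% and 11.7% of all genes, with a median of 6.22, against 0.67 over all genes. Fkbp10, a helix isomerase, Adamts2, Lox and Loxl1 had no reads in base and were at least 1896-, 1687-, 2377- and 1601-fold higher in brain. Adamts14 (-8.63 ± 1.07) and Ppib (-0.66 ± 0.24) were lower. The values of single enzymes, receptors and matrix genes were not recomputed under the other scalings. In blood, 5 of the 28 were higher than base on both days, while 5 were lower on day 5 and 6 on day 1. Over all genes the shares higher were 19.6% on day 5 and 18.1% on day 1 and the shares lower 11.4% and 14%, so the higher counts are near the background. Fkbp10 averaged 579 in blood day 5 and 935 in blood day 1, at least 144-fold and 233-fold above base. Loxl2, another cross-linking oxidase, was lower, at 3.56 and 1.31 against 274 in base (-6.77 ± 1.05 and -7.27 ± 1.05). Plod2, which hydroxylates lysines for cross-links, was at 74.2 and 36.5 against 943 in base (-3.61 ± 1.04 and -6.10 ± 1.04).

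Of the 11 tested collagen receptors (12 in the table), 5 were higher in brain than in blood day 5 and 2 lower, against 33.6% and 14.3% of all genes, and 5 and 2 against base, against 37.5% and 11.7%. These counts are near the background, and the medians were 1.92 and 1.71, against 0.47 and 0.67 over all genes. Ddr1, a receptor tyrosine kinase, averaged 5113 in brain and 68 in blood day 5 (6.29 ± 0.74, adjusted p = 1.9e-07). Mrc2, which takes up collagen fragments, averaged 2191 in brain and 0.276 in blood day 5. Gp6, the collagen receptor of platelets, averaged 0.407 in brain and 2781 in blood day 5 (-10.50 ± 0.98), and platelet markers made up 0.00221 to 0.0143% of brain libraries and 0.174 to 1.52% of blood day 5 libraries. Itga2, the alpha chain of a collagen-binding integrin, averaged 36 and 776 (-5.61 ± 0.95). In blood 2 receptors were higher than base and 1 was lower on each day, near the shares over all genes (19.6% and 11.4% on day 5, 18.1% and 14% on day 1): Ddr1 and Gp6 were higher, and Itga1 was lower (-3.07 ± 1.13 on day 5 and -4.54 ± 1.13 on day 1).

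Of the 14 collagen-degrading enzymes and inhibitors, 11 were higher in brain than in blood day 5 and 2 lower, against 33.6% and 14.3% of all genes, and 13 were higher than base and 0 lower, against 37.5% and 11.7%. The medians were 7.66 and 7.93, and the share lower than blood day 5 equals the background. The gelatinase gene Mmp2 averaged 9431 in brain and 102 in blood day 5 (8.45 ± 1.25), and the protease Ctsk 1559 and 7.60 (8.33 ± 0.89). The inhibitors Timp1 (8.35 ± 0.83) and Timp3 (8.61 ± 1.41) were higher in brain too. Mmp8 and Mmp9, a collagenase and a gelatinase known from neutrophils, were lower in brain than in blood day 5 (-4.56 ± 0.88 and -4.41 ± 1.00) and higher than in base (3.65 ± 0.92 and 5.01 ± 1.06). In blood, 4 genes were higher than base on day 5 and 5 on day 1, against 19.6% and 18.1% of all genes, and 0 were lower, against 11.4% and 14%, with Timp2 at 7.10 ± 0.42 and 6.91 ± 0.42.

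Of the 18 matrix partners, 17 were higher in brain than in blood day 5 and 0 lower, against 33.6% and 14.3% of all genes, and 16 were higher than base and 0 lower, against 37.5% and 11.7%, with medians of 7.72 and 8.65. Fmod, a proteoglycan that binds type I fibrils, averaged 4444 in brain and had no reads in blood day 5 or base, at least 1470-fold and at least 1106-fold higher. Bgn, a related proteoglycan, averaged 30377 and 88.7 (11.32 ± 1.49), and Lum 3506 and 3.54 (10.35 ± 0.97). Fn1, fibronectin, was higher than base (8.45 ± 1.01) and was not called against blood day 5 (2.18 ± 0.96, adjusted p = 0.0682). Blood had 5 partners higher and 2 lower than base on each day, against 19.6% and 11.4% of all genes on day 5 and 18.1% and 14% on day 1. Fn1 was among those higher (6.28 ± 1.01 on day 5 and 6.18 ± 1.01 on day 1), and the laminin chains Lama5 (-8.54 ± 1.42 and -7.44 ± 1.42) and Lamc1 (-1.80 ± 0.64 and -2.38 ± 0.64) were lower. In none of the 4 lists was a gene called between the blood days in limma, where Plod2, Loxl1, Mmp8 and Mmp9 had an unadjusted p under 0.05, and the lists were not counted with edgeR. Dcn and Lum stand both in this list and among the fibroblast markers.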

How the data were processed

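RNA was measured by poly-A sequencing with random hexamer priming in 23 libraries. Reads were cleaned with fastp and aligned to mm10 with HISAT2 2.0.5, per the submitters' processing notes. For the counting tool, annotation and strand setting, nothing is given in the sources used here. The authors deposited a signal per gene and library, which the values show to be the read count divided by 1 size factor per library. Whole reads were recovered from it: 100% of values were whole within 0.1 read, the largest deviation being 0.000988 read.

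Genes with a value of 10 or more in at least 5 libraries were tested (15268 of 19945) with limma 3.58.1 in R 4.3.3, on log2(value + 1) with group and batch over all 23 libraries, an intensity trend and robust moderation. Two-sided p-values were adjusted by Benjamini and Hochberg over all genes tested, with a threshold of 0.05, and fold changes are on the log2(value + 1) scale, which understates changes of low genes. The code was tested on simulated data. Where a group had 0 reads, a fold is a bound against a floor of 3 reads per library, and with 1 to 3 reads it is a rate ratio with an exact 95% interval. Intervals and floors cover counting error only, since reads without molecular identifiers are not independent molecules. Alternatives were a pseudocount of 0.5, no filter, edgeR 4.0.16, equal totals, fewer libraries, averaged close libraries and a replicate block. Gene positions are from GENCODE M21 (GRCm38, the same assembly as mm10). Named genes are the 12 with the highest group mean, and those called between blood and base with a group mean of 100 or more; others were named after their values were seen. The collagen genes and the lists were chosen with earlier results of these data known.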

Additional observations from a re-analysis of the deposited data

Results flagged for a closer look

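In each group, the highest or lowest library was screened for its gap to the nearest other library, for single genes on the log2 scale. By Dixon's 95% critical value, 15 of 54 groups of values stood out. For normally distributed values chance alone gives about 1 in 20. That rate does not hold where only 1 library of a group has reads, since the gap is then the whole range. Brain replicate 2 was far below the other 5 brain libraries for Col3a1 (5181), Col4a1 (191), Col18a1 (143), Col5a1 (42.6) and Col16a1 (343), and it is one of the libraries that stood apart from their group. Blood day 1 replicate 2 was far above its group for the summed collagen level (0.00904%), Col1a1 (585) and Col6a1 (152), and it also stood apart. Base replicate 4 was far above its group for the summed collagen level (0.00806%). The remaining cases were single libraries with reads where the rest of the group had none: Col12a1 in blood day 5 replicate 4 (18.8) and in blood day 1 replicate 3 (1.17), Col7a1 in blood day 5 replicate 5 (4.59), Col16a1 in blood day 5 replicate 1 (3.31), Col4a1 in base replicate 1 (1.81) and Col6a1 in base replicate 3 (3.30).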

How the results depend on the processing

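No called value changed direction in the alternatives run. For brain against base, Col20a1 (-2.02 to 0.90) and Col27a1 (-1.56 to 0.02), which were not called, took either sign. Over the alternatives other than leaving out 1 library, 31 to 37 collagen genes were higher in brain than in blood day 5 and 28 to 34 than in base, and leaving out 1 library at a time gave 32 to 34 and 29 to 32. None was lower in brain in these fits except with no filter on low values, which made 1 gene, Col19a1, lower in brain than in base. For blood day 1 against base, the count higher was 1 with only the libraries of both groups, with the replicate block, with the closest libraries averaged and without the 4 libraries that stood apart, and 1 to 4 with 1 library left out. The count lower was 1 with edgeR, equal totals or the closest libraries averaged, and 1 to 3 with 1 library left out. For blood day 5 against base, the count higher was 4 with edgeR and without the 4 libraries, and 2 to 3 with 1 library left out. The count lower was 1 with no filter, equal totals or the closest libraries averaged, 4 without the 4 libraries, and 1 to 3 with 1 library left out. Between the blood days the counts were 0 and 0 throughout. The cause of these shifts was not tested. Libraries with the same replicate number had correlations of -0.104 to 0.189 over 33 pairs, against -0.167 to 0.12 for 66 pairs with different numbers. The ranges overlap and show no clear pairing by number, but they pool all groups and cannot exclude it. With the replicate block 32 and 31 collagen genes were higher in brain, against 5078 and 5687 of all genes. In blood, 2 collagens were higher on day 5, against 2895 of all genes. On each day 2 collagens were lower, against 1644 of all genes on day 5 and 1951 on day 1. The collagens lower with the block were Col27a1 and Col20a1 (adjusted p = 0.0436 on day 5 and 0.0443 on day 1), while Col4a4 lost its call (0.0530 and 0.0533). Folds against blood or base are limited by read numbers, with no reads of 7 collagens in blood day 5, 11 in blood day 1 and 13 in base.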
